A study of Homo sapiens with 18 samples.

Results

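Members of the unfolded protein response and of endoplasmic reticulum (ER) quality control were followed here in multiple myeloma cells. The members are 50 genes named in a list of symbols, and each symbol matched 1 of the 62703 gene identifiers in the count tables, so that 50 of 50 were measured. By role they fall into 12 genes of the IRE1-XBP1 branch and the translocon, 8 of the PERK-ATF4 branch, 16 of the ATF6 branch with the chaperones and enzymes of oxidative folding, and 14 of ER-associated degradation (ERAD).

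RNA-seq libraries came from established multiple myeloma lines of human origin, which carry the 3 labels AMO1, H929 and LP1. In each line 3 libraries carry the label gN1E, for an LNA-gapmeR against the long non-coding RNA NEAT1, and 3 carry the label SCR, for a scrambled gapmeR. GapmeRs are modified DNA strands whose pairing with a transcript lets RNase H cleave it, and here they were taken up without a transfection reagent, at 5 µM and for 48 h according to the treatment protocol (the series text gives 48 days). Each line is a single source, and the labels do not say whether libraries of a group came from separate cultures, so p-values measure the spread between these libraries, which may be technical. In bulk RNA, fewer cells expressing a gene and less of its RNA per cell cannot be told apart.

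The total count per library, summed over all genes, ran from 53227560 to 66142827 in the libraries labelled AMO1 SCR and from 28061606 to 49784737 in those labelled AMO1 gN1E. It ran from 34710995 to 54387667 (H929 SCR), from 52856172 to 59302536 (H929 gN1E), from 56542997 to 69937229 (LP1 SCR) and from 44091209 to 57247024 (LP1 gN1E). The 50 genes held between 1.67% and 2.03% of these counts. Levels are given as CPM, the count relative to a library total scaled with TMM factors over the 18 libraries, and as RPKM, the same CPM per kilobase of exon, wherever genes are set against each other.

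The labelled cell type was checked first. Of 8 plasma cell markers, 8 exceeded 1 CPM, and SDC1 ranged from 1200.1 to 14346 CPM over the 18 libraries. The marker lists of B cells, T cells, myeloid, erythroid and stromal cells summed to at most 18.9, 28.2, 10.5, 8.43 and 1.74 CPM in any library. The B cell list held 3 of 5 genes above 1 CPM in some library (BLK up to 16.6 CPM), the T cell list 2 of 4 (CD3E, up to 24.9 CPM), and the others 1 each (CSF1R, HBA1 and COL1A1). COL3A1 and LUM had no counts in any library, while the T cell gene CD3D stayed at or below 0.0399 CPM. Some sums did not overlap between the gapmeR labels of a line. In LP1 the myeloid sum ran from 7.66 to 10.5 CPM (SCR) and from 4.06 to 6.58 CPM (gN1E), and the T cell sum from 14.9 to 16.6 CPM and from 10.4 to 14.3 CPM. The T cell sum of AMO1 ran from 25.2 to 28.2 CPM (SCR) and from 21.009 to 25.1 CPM (gN1E), and the plasma cell sum of H929 from 15209.9 to 16188 CPM and from 17134 to 18330.3 CPM. Whether this bears on the differences between gapmeR labels given below was not tested.

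NEAT1 (ENSG00000245532.11, chromosome 11 from 65422774 to 65445540, hg38) was then read in every library, because it checks the gapmeR labels. It measured 75.7, 78.8 and 90.8 CPM in the AMO1 libraries labelled SCR and 473, 553 and 517 CPM in those labelled gN1E. The corresponding values were 79.8, 72.7 and 79.1 against 554, 464 and 542 CPM for H929, and 135, 173 and 189 against 656, 667 and 829 CPM for LP1. Every gN1E value exceeded every SCR value of its line, which goes against the labels, since the gapmeR is meant to lower NEAT1. The log2 fold change was 2.66, 2.74 and 2.14 (standard errors 0.0744, 0.0683 and 0.19). Every library is therefore named by its label, and a gene described as higher in the libraries labelled gN1E is higher where NEAT1 is high. In LP1 the adjusted p of NEAT1 itself was 0.0269 (edgeR, Benjamini-Hochberg). It was no longer under 0.05 when SCR B, gN1E A, gN1E B or gN1E D was left out of that edgeR fit, with the log2 fold change between 2.01 and 2.20. The values were 0.176, 0.111, 0.0886 and 0.0578 in that order, within a range over 14 alternatives of 3.69e-26 (DESeq2) to 0.176.

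The line labels also call for care. The names inside the count tables exchange H929 with LP1, and SCR with gN1E. The immunoglobulin segment IGHV3-23 had between 51156 and 114535 counts in the 6 libraries labelled H929 and between 55114 and 102058 in the 6 labelled AMO1, but 0 in the 6 labelled LP1. Over 15433 genes, Spearman's correlation of the line means was 0.974 between AMO1 and H929, 0.818 between AMO1 and LP1 and 0.851 between H929 and LP1. The line names below are those of the labels, and whether AMO1 and H929 are separate lines cannot be told from these values, so a result found under both labels may not come from separate lines.

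As background, a plasma cell secretes antibody, and its ER must fold and inspect a large flow of protein. Unfolded protein in the ER activates 3 sensors: IRE1 (gene ERN1), which splices XBP1 mRNA into the form that encodes an active transcription factor, PERK (gene EIF2AK3), which phosphorylates eIF2α and so favours translation of ATF4, and ATF6, which is cut in the Golgi to release a transcription factor. Their targets include chaperones, oxidoreductases, the translocon and ERAD, which returns misfolded proteins to the cytosol for the proteasome, while ATF4 also drives amino acid genes and, through DDIT3, genes of cell death. Counts per gene do not separate spliced from unspliced XBP1 and do not measure translation.

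The factors of these branches are known to act through short promoter elements, which are shown for the members that carry them. Promoters of 47 of the 50 genes were found in the RefSeq table (GRCh38.p14), and DERL1, DERL3 and PDIA3 had no entry. The 250 bases before the annotated start were searched on both strands. The ER stress response element ERSE, bound by ATF6 together with NF-Y, was searched as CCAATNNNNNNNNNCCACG. It occurred in 0.074% of all 35116 promoters, or at 0.0916% of all 27305 genes. Of the 47 genes 8 held it: the chaperones HSPA5, HSP90B1, CALR and CANX, the oxidoreductases PDIA6 and ERO1B, the secreted ER protein CRELD2, and XBP1. These 8 are printed 5′ to 3′ on the strand of the gene with the element in capitals, which reads as its reverse complement where the match is on the opposite strand.
HSPA5 (chr9:125241361-125241439, minus strand): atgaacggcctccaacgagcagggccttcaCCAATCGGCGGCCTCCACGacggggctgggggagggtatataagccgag
HSP90B1 (chr12:103930186-103930264, plus strand): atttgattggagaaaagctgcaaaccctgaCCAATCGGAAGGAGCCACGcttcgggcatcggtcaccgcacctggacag
CALR (chr19:12938359-12938432, plus strand): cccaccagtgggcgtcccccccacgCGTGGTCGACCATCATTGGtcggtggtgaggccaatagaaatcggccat
CANX (chr5:179698748-179698826, plus strand): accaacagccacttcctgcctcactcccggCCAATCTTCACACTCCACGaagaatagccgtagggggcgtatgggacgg
PDIA6 (chr2:10812823-10812901, minus strand): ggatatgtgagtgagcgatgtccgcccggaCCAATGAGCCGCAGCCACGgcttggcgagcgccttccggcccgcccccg
ERO1B (chr1:236282153-236282208, minus strand): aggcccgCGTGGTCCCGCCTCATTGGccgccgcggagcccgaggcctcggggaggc
CRELD2 (chr22:49918524-49918602, plus strand): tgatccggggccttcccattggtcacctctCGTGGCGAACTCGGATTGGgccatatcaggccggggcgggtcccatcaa
XBP1 (chr22:28800573-28800651, minus strand): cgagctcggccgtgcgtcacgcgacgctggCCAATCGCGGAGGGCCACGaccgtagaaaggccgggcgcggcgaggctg
The element begins 52 bases before the start in XBP1, 66 in HSPA5 and 86 in PDIA6, and HSP90B1 holds 2 copies of which the upstream one, 194 bases before the start, is shown.

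The related element ERSE-II, searched as ATTGGNCCACG, was present in 0.0513% of all promoters, or at 0.0659% of all genes. Of the 47 genes 3 held it: HERPUD1, an ERAD scaffold, the chaperone HYOU1 and SDF2L1, a partner of the ER DnaJ proteins. HYOU1 holds 2 copies, of which the upstream one is shown, and capitals mark the element.
HERPUD1 (chr16:56931995-56932065, plus strand): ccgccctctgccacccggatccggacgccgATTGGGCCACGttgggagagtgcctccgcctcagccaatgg
HYOU1 (chr11:119057350-119057420, minus strand): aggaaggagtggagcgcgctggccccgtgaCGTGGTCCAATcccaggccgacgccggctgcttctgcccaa
SDF2L1 (chr22:21642084-21642154, plus strand): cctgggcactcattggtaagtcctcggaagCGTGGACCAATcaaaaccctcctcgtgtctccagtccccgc
In HYOU1 the match overlaps that of TGACGTGG, the core of the element bound by XBP1 (0.612% of all promoters, 0.78% of all genes), which SSR3, SSR4 and VCP hold as well. The CARE motif of ATF4 and its partners, TGATGNAA, was found in 3.14% of promoters (3.89% of all genes) and at ASNS, ATF3, CHAC1 and HERPUD1, of which 3 are shown.
ASNS (chr7:97872439-97872506, minus strand): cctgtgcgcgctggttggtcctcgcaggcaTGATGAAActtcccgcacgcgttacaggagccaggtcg
ATF3 (chr1:212565186-212565253, plus strand): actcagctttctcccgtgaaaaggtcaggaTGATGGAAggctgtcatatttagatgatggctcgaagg
CHAC1 (chr15:40953232-40953299, plus strand): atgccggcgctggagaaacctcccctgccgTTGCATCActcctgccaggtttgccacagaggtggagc
Such matches describe the sequence and do not show that a factor was bound in these cells.

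Per length, the 50 genes covered a wide range of levels in each line. The ER lectin chaperone CALR stood at the top in AMO1 and H929 (360.0 and 467 RPKM, means of 6 libraries) and was next to XBP1 in LP1 (521 RPKM). ERO1B, an oxidase of the disulfide relay, was lowest in the 3 lines with 0.41, 0.297 and 0.61 RPKM. Among the sensors, ERN1 measured 27.5, 15.7 and 16.5 RPKM, EIF2AK3 12.1, 12 and 30.4 RPKM, and ATF6 11.8, 12.6 and 12.8 RPKM in AMO1, H929 and LP1. All 3 sensors were below the chaperones HSPA5, HYOU1, CANX and PDIA4, which lay between 107 and 177 RPKM, but not below every folding gene. In AMO1 ERN1 was number 29 of the 50 genes, above PDIA3 (number 41) and CRELD2 (number 47). In LP1 EIF2AK3 was number 28, above PDIA3 (number 36) and CRELD2 (number 44).

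**Figure D1:**
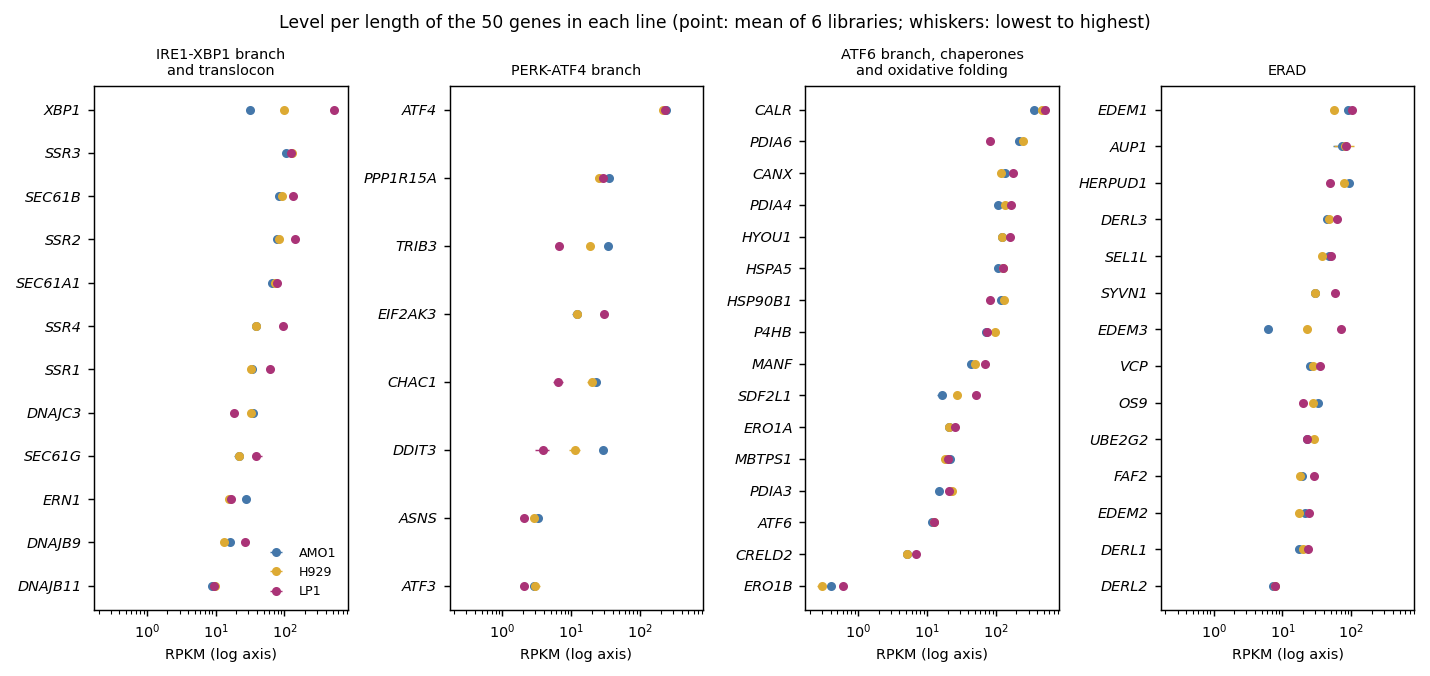
Level per length (RPKM, log axis) of the 50 genes in 4 panels by branch, each point the mean of the 6 libraries of a line and each whisker the lowest to highest library. XBP1 and EDEM3 are spread widest between lines with LP1 highest, and DDIT3, TRIB3 and CHAC1 run the other way.

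The question of how the lines differ was addressed in a joint edgeR fit of the 18 libraries over 26436 genes, with the mean of both gapmeR labels as the level of a line. At an adjusted p under 0.05 and a 2-fold difference, 3 of the 50 genes differed between AMO1 and H929, where 10.2% of all genes tested did. Between AMO1 and LP1 it was 9 of 50 against 41.5% of all genes, and between H929 and LP1 10 of 50 against 38.1%. Among genes averaging 20 CPM or more, the shares were 2.32%, 23.9% and 20.8%. The 50 genes gave 6%, 18% and 20%, under the share of all genes in each pair of lines, but above the share of genes at 20 CPM or more between AMO1 and H929. With library size in place of TMM factors, the median log2 difference of all genes moved from 0.02 to 0.20 (AMO1 minus LP1) and from 0.05 to 0.24 (H929 minus LP1), so levels in LP1 are relative to that scaling.

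XBP1 (ENSG00000100219.17, chromosome 22 from 28794555 to 28800597), the transcription factor at the end of the IRE1 branch, gave the largest difference of the 50 genes between LP1 and either other line. Its lowest, median and highest level over 6 libraries was 87, 95.4 and 105 CPM in AMO1, 285, 296 and 301 CPM in H929 and 1513, 1578 and 1695 CPM in LP1. The ranges of the 3 lines do not meet, and LP1 lies above H929 and H929 above AMO1 under either gapmeR label. XBP1 was 16.7-fold higher in LP1 than in AMO1 (adjusted p = 9.83e-39), 5.39-fold higher than in H929 (adjusted p = 2.6e-33) and 3.09-fold higher in H929 than in AMO1 (adjusted p = 1.32e-27; edgeR with Benjamini-Hochberg adjustment). Per length it was the highest of the 50 genes in LP1 (526 RPKM) and number 26 of them in AMO1 (31.6 RPKM). ERN1, the kinase and RNase that processes XBP1 mRNA, ran in another order, at 527 ± 38.2 CPM in AMO1, 301 ± 18.8 in H929 and 317 ± 13.1 in LP1 (SD, n = 6). It was 1.66-fold higher in AMO1 than in LP1 (adjusted p = 1.5e-17, edgeR with Benjamini-Hochberg adjustment), while H929 and LP1 were not told apart (adjusted p = 0.11, same edgeR fit).

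Within the same branch, SSR4, a subunit of the translocon-associated complex, reached 441 ± 24.4 CPM in LP1 against 174 ± 9.24 in AMO1 and 178 ± 11.9 in H929 (SD, n = 6), 2.53-fold and 2.48-fold. DNAJB9, an XBP1 target and co-chaperone of HSPA5, passed the 2-fold rule between H929 and LP1 (33.2 ± 2.58 against 67.9 ± 3.68 CPM, 2.05-fold). With library size only, and in the libraries labelled SCR alone, DNAJB9 no longer passed it. No gene of this branch passed it with a lower level in LP1 in the edgeR fit with TMM factors, but DNAJC3, an inhibitor of PERK, did so with library size only against both other lines, and against AMO1 in the libraries labelled gN1E alone.

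In the PERK-ATF4 branch the sensor was highest in LP1 and several genes that ATF4 drives were lowest there. EIF2AK3 was at 215, 245 and 284 CPM (lowest, median and highest of 6 libraries) in AMO1, at 227, 248 and 267 CPM in H929 and at 608, 632 and 650.2 CPM in LP1. The LP1 libraries stand apart, 2.53-fold above AMO1 (adjusted p = 1.52e-27, edgeR with Benjamini-Hochberg adjustment), and the ranges of AMO1 and H929 overlap. ATF4 mRNA, by contrast, differed by no more than 1.09-fold between any 2 lines, with means of 625 ± 29.2, 571 ± 25.6 and 610.0 ± 37.5 CPM (SD, n = 6) in AMO1, H929 and LP1.

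DDIT3 (ENSG00000175197.13, chromosome 12 from 57516588 to 57521737), which encodes the transcription factor CHOP, had a lowest, median and highest level of 34.2, 37.3 and 42.5 CPM in AMO1, 12.3, 14.1 and 17.5 CPM in H929 and 3.91, 5.25 and 6.16 CPM in LP1. These ranges do not overlap, and the order is the reverse of that of XBP1. DDIT3 was 7.4-fold higher in AMO1 than in LP1 (adjusted p = 3.42e-25) and 2.58-fold higher than in H929 (adjusted p = 5.87e-17; edgeR with Benjamini-Hochberg adjustment). It shares its strand with 2 overlapping annotated genes, of which one had 0 and the other, MIR616, 735 counts over the 18 libraries, against 17258 for DDIT3. TRIB3, a pseudokinase that dampens signalling through AKT and ATF4, measured 111 ± 8.89, 62.5 ± 5.45 and 21.9 ± 1.63 CPM. CHAC1, which degrades glutathione and carries the CARE motif printed above, measured 47.3 ± 4.49, 40.5 ± 4.25 and 13.2 ± 1.78 CPM (SD, n = 6). TRIB3 and CHAC1 were 5.05-fold and 3.6-fold higher in AMO1 than in LP1, so that 3 genes of this branch were 2-fold higher and 1, EIF2AK3, 2-fold lower in AMO1. The same 4 genes passed the rule in the same directions between H929 and LP1. They are 50% of the 8 genes in either comparison with LP1, beside 41.5% (AMO1) and 38.1% (H929) of all genes tested. Among genes averaging 20 CPM or more, the shares were 23.9% and 20.8%.

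**Figure D2:**
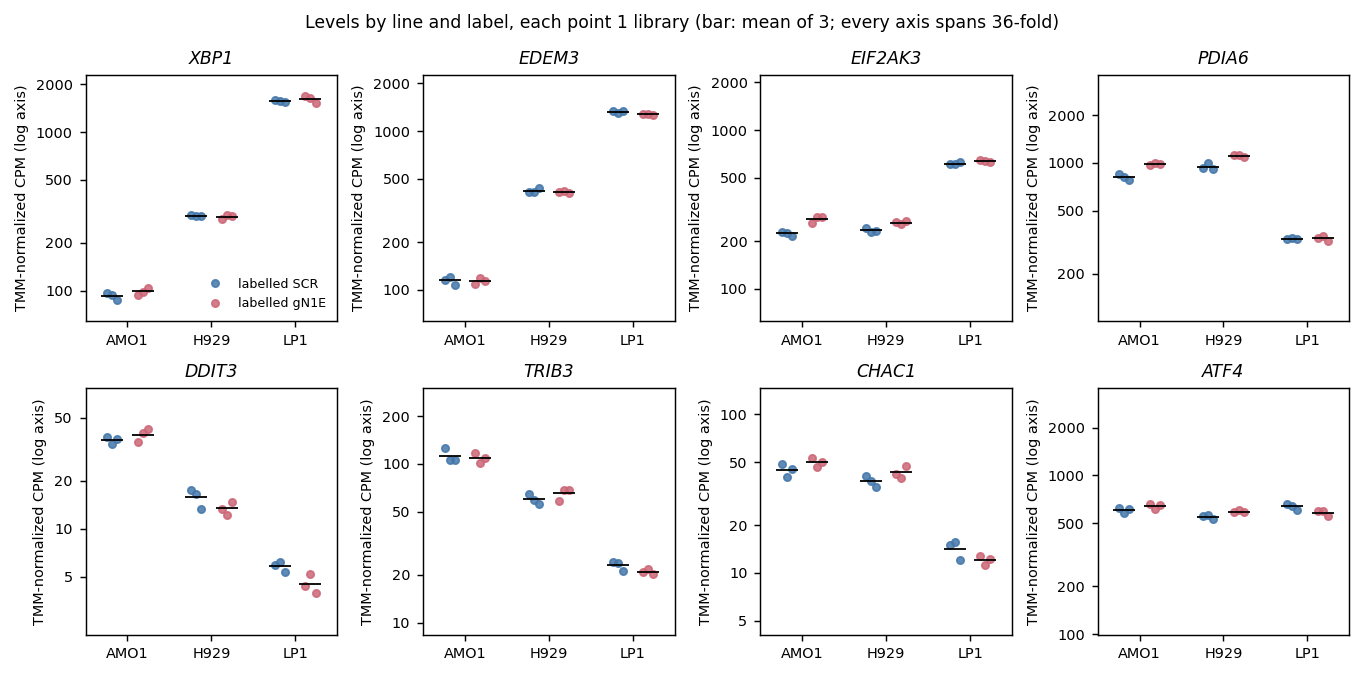
TMM-normalized CPM (log axis, each axis spanning 36-fold) of 8 genes in the libraries of each line, blue for the label SCR and red for gN1E, with a bar at the mean of 3. XBP1, EDEM3 and EIF2AK3 are highest in LP1, PDIA6, DDIT3, TRIB3 and CHAC1 are lowest there, and ATF4 is nearly level.

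Among chaperones and folding enzymes, HSPA5, the HSP70 of the ER that holds the sensors inactive, had levels of 703 ± 9.16, 840.0 ± 32.6 and 837 ± 46.7 CPM (SD, n = 6) in AMO1, H929 and LP1, at most 1.19-fold apart. ATF6 itself differed by no more than 1.08-fold between any 2 lines. PDIA6, a disulfide isomerase with an ERSE, was at 779.7, 917 and 1000.2 CPM (lowest, median and highest) in AMO1, 913, 1044 and 1127 in H929 and 321, 334 and 349 in LP1. Its LP1 libraries all lie below those of the other 2 lines, 2.69-fold below AMO1 and 3.07-fold below H929 (adjusted p = 4.7e-28 and 1.94e-29, edgeR with Benjamini-Hochberg adjustment). SDF2L1 went the other way, 3.07-fold higher in LP1 than in AMO1 (54.4 ± 4.28 against 17.7 ± 1.54 CPM), and ERO1B was 2.05-fold higher in LP1 than in H929, at levels under 10.1 CPM. ERO1B no longer passed the 2-fold rule with library size only or without H929 gN1E B, which left 9 of the 50 genes in the latter fit.

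In ERAD a single gene passed the 2-fold rule in the edgeR fit with TMM factors, and it did so between each pair of lines. This is 7.14% of the 14 genes, beside 10.2%, 41.5% and 38.1% of all genes tested (AMO1 against H929, AMO1 against LP1, H929 against LP1). EDEM3 (ENSG00000116406.20, chromosome 1 from 184690237 to 184754907), which trims mannose from misfolded glycoproteins and so marks them for removal, was at 107, 115 and 121 CPM (lowest, median and highest of 6) in AMO1, 408, 414 and 435 CPM in H929 and 1269, 1291 and 1342 CPM in LP1. The 3 ranges are separate and in the order of XBP1. EDEM3 was 11.4-fold higher in LP1 than in AMO1, 3.12-fold higher than in H929 and 3.65-fold higher in H929 than in AMO1 (adjusted p = 5.6e-38, 1.99e-29 and 5.36e-30, edgeR with Benjamini-Hochberg adjustment). Its paralog EDEM1 ranged less, at 604 ± 53.1, 372 ± 17.7 and 695 ± 43.5 CPM (SD, n = 6). In the core of the ERAD ligase, SYVN1 was 1.96-fold higher in LP1 than in AMO1, just under the 2-fold rule, and its partner SEL1L differed by at most 1.34-fold. Between AMO1 and LP1, SYVN1 passed the rule with DESeq2, with RLE factors, without AMO1 SCR A, without AMO1 gN1E A and in the libraries labelled gN1E alone, and HERPUD1, higher in AMO1, with library size only and in the libraries labelled gN1E alone. In the libraries labelled SCR alone, SYVN1 passed it between H929 and LP1. SYVN1 overlaps the highly expressed gene FAU on the same strand, so its counts are less certain.

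The comparison of the gapmeR labels within a line asks what accompanies a difference in NEAT1. Genes entered the test of a line when any of its 6 libraries had 10 or more reads, and all 50 did so in the 3 lines. With edgeR and a Benjamini-Hochberg adjusted p under 0.05, 4 of 50 genes differed in AMO1, where 2.06% of 22933 genes did. The numbers were 4 of 50 in H929 against 5.47% of 23499 genes, and 2 of 50 in LP1 against 1.43% of 23165. Among genes averaging 20 CPM or more, which resemble the 50 more closely in level, the shares were 3.99%, 10.8% and 2.46%. The 50 genes gave 8%, 8% and 4%, and no test of the list as a set was made. At an unadjusted p under 0.05 there were 12, 12 and 9 of the 50, beside 2803 of 22933, 4156 of 23499 and 3018 of 23165 genes tested, and 1421 of 7812, 2244 of 7866 and 1379 of 7847 genes at 20 CPM or more.

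The sign of the small differences varied by line and by scaling. Of the 50 genes, 38 had a positive log2 fold change (libraries labelled gN1E minus SCR) in AMO1, 27 in H929 and 10 in LP1, with medians of 0.08, 0.01 and -0.04 beside -0.02, -0.01 and 0.00 for all genes tested. With library size only, the numbers were 28, 15 and 21 and the medians 0.04, -0.04 and -0.01. All 3 gN1E libraries lay above all 3 SCR libraries for 14 of the 50 genes in AMO1 (9.17% of all genes), 9 of 50 in H929 (12.2%) and 3 of 50 in LP1 (7.42%). They lay below for 2 of the 50 genes in AMO1 (8.5% of all genes), 4 of 50 in H929 (9.57%) and 15 of 50 in LP1 (10.6%). These percentages cover all genes tested. They were not computed for genes at 20 CPM or more, so whether the counts of the 50 genes reflect their level was not tested. The share of genes higher in the libraries labelled gN1E among all calls was 79.7%, 67.7% and 45.8% in the 3 lines, and 51.2%, 42.8% and 63.8% with library size only, so directions over many genes rest on the scaling.

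The ERAD gene AUP1 (ENSG00000115307.17, chromosome 2 from 74526645 to 74529760), a lipid droplet and ER membrane protein that recruits the ubiquitin conjugating enzyme UBE2G2 to the ERAD complex, was called under all 3 line labels. It measured 152, 133 and 152 CPM in the AMO1 libraries labelled SCR and 224, 205 and 212 CPM in those labelled gN1E. In H929 the values were 155, 157 and 137 CPM (SCR) and 252, 264 and 236 CPM (gN1E), and in LP1 178, 184 and 175 CPM (SCR) and 227, 228 and 227 CPM (gN1E). In each line every library labelled gN1E exceeded every library labelled SCR, with a wide gap between them. The log2 fold change was 0.55 in AMO1 (standard error 0.0604, adjusted p = 5.8e-06), 0.73 in H929 (standard error 0.0537, adjusted p = 2.27e-10) and 0.36 in LP1 (standard error 0.0446, adjusted p = 0.00012; edgeR with Benjamini-Hochberg adjustment). AUP1 passed the threshold in 14 of 14 alternative fits of each line that kept this threshold, and its log2 fold change stayed between 0.34 and 0.77 over the 3 lines. By the further rule of 1.5-fold and an adjusted p under 0.1, AUP1 in H929 was the single call among the 50 genes, and 0 were left in AMO1 and in LP1 (edgeR). Its neighbour HTRA2 overlaps it on the other strand, and the authors counted by strand. UBE2G2, its partner, had log2 fold changes of -0.11, -0.03 and 0.03 and was called in none of the lines.

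SEL1L, the adaptor of the ERAD ligase, had 419, 437 and 416 CPM (SCR) and 497, 483 and 503 CPM (gN1E) in AMO1. The groups did not overlap, and the log2 ratio was 0.22 ± 0.0505 (standard error; adjusted p = 0.0181, edgeR with Benjamini-Hochberg adjustment). The call was lost without SCR D (adjusted p = 0.1), gN1E C (0.0615) or gN1E D (0.169) and with library size only (0.0671), all edgeR fits, within a range over 14 alternatives of 0.00028 to 0.169. In H929 and LP1 the libraries of SEL1L did not overlap either, with log2 fold changes of 0.12 and 0.12 that missed the threshold (adjusted p = 0.154 and 0.249, edgeR with Benjamini-Hochberg adjustment). SYVN1, the ligase itself, gave -0.13, 0.11 and -0.02, and HERPUD1 0.13, -0.01 and -0.09, none of them called.

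DERL3, a derlin of the retrotranslocation channel that is abundant in plasma cells, was called in H929, where it had 172, 181 and 149 CPM (SCR) and 200.2, 194 and 196 CPM (gN1E). The gN1E libraries are close together and above the SCR libraries, among which C is lowest. DERL3 differed by 0.22 ± 0.0554 on the log2 scale (standard error; adjusted p = 0.018, edgeR with Benjamini-Hochberg adjustment). The adjusted p was 0.0861 without SCR C, 0.0557 without gN1E A, 0.0566 without gN1E B and 0.0895 in the joint fit, the highest of 14 edgeR and other alternatives that began at 0.000354. Its log2 fold change was 0.03 in AMO1 and -0.03 in LP1.

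**Figure D3:**
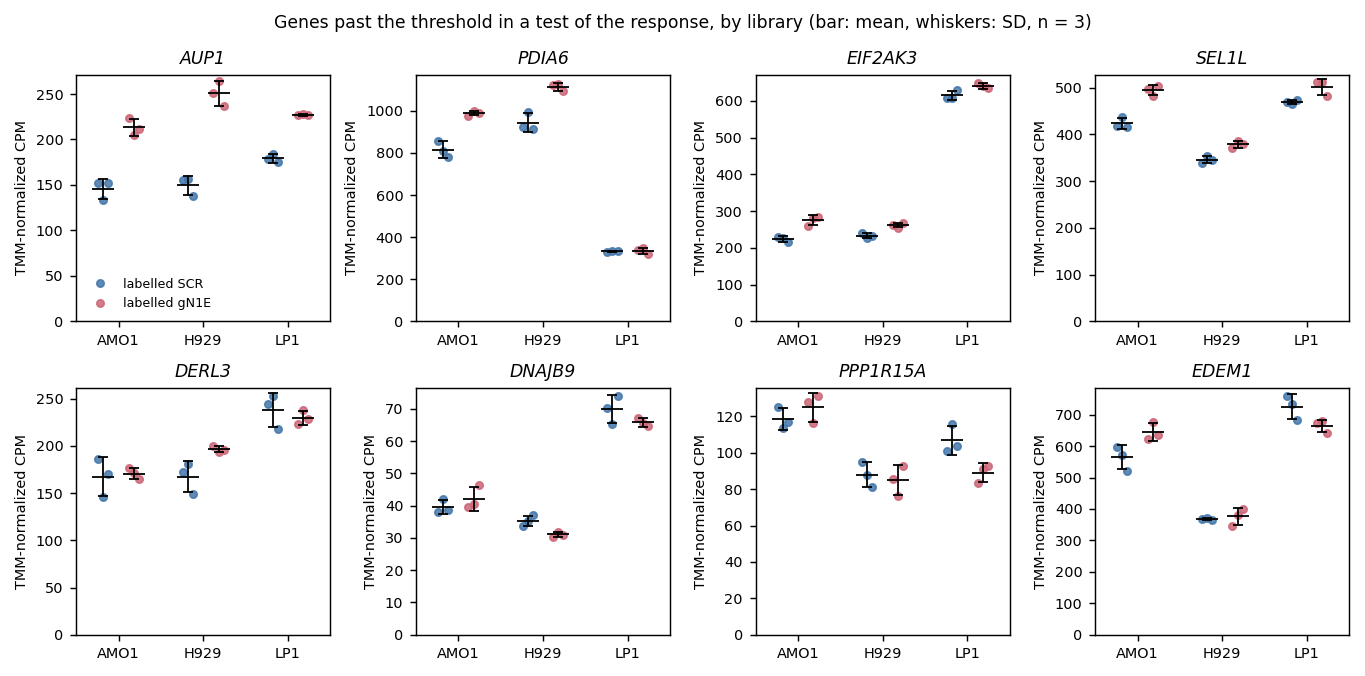
TMM-normalized CPM of 8 genes in each library, by line and gapmeR label (blue SCR, red gN1E), with mean and SD of 3 libraries. AUP1 is separated in the 3 lines, PDIA6 in AMO1 and H929, and EDEM1 lies higher under gN1E in AMO1 and lower in LP1.

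Among the folding enzymes, PDIA6 (ENSG00000143870.13, chromosome 2 from 10783391 to 10837977) was called in AMO1 and H929. It had 857, 812 and 779.7 CPM (SCR) against 978, 1000.2 and 991 CPM (gN1E) in AMO1, and 924, 995 and 913 CPM against 1122, 1127 and 1093 CPM in H929. In LP1 the values were 331, 334 and 333 CPM (SCR) and 337, 349 and 321 CPM (gN1E). The labels are separated in the 2 lines where its level is high and overlap in LP1. The log2 fold change was 0.28 in AMO1 (standard error 0.0518, adjusted p = 0.00322) and 0.23 in H929 (standard error 0.0497, adjusted p = 0.00447), and in LP1 it was 0.03 (adjusted p = 0.809, edgeR with Benjamini-Hochberg adjustment). In H929 the adjusted p of this edgeR test was 0.0585 without SCR A, the highest over 14 alternatives that began at 4.44e-05. PDIA6 is the only gene with an ERSE that was called. The 8 such genes had median log2 fold changes of 0.05, -0.03 and -0.05 in AMO1, H929 and LP1.

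By the edgeR fit of each line, no other gene of this group was called (3, 3 and 1 of the 16 had an unadjusted p under 0.05). P4HB was called in AMO1 with the replicate block and without SCR A and in H929 with no filter, and HYOU1 in H929 with DESeq2. HSPA5 had 698, 692 and 711 CPM (SCR) and 708, 695 and 714 CPM (gN1E) in AMO1, a log2 ratio of 0.01 (standard error 0.0493). In H929 and LP1 it was -0.02 (standard error 0.0513) and -0.10 (standard error 0.0484). ATF6 had 0.12, 0.08 and 0.02. Over the 16 genes the log2 fold changes ran from -0.13 to 0.28 in AMO1, from -0.13 to 0.23 in H929 and from -0.12 to 0.03 in LP1, and 10, 8 and 3 of them were positive with TMM factors.

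In the PERK-ATF4 branch, EIF2AK3 (ENSG00000172071.15, chromosome 2 from 88556741 to 88691518) had 229.9, 226 and 215 CPM (SCR) and 259.5, 282 and 284 CPM (gN1E) in AMO1. It had 241, 227 and 233 and 263, 255 and 267 CPM in H929, and 609, 608 and 629 and 650.2, 639 and 635 CPM in LP1. The gN1E values all exceed the SCR values of the same line, by least in LP1. The log2 fold change was 0.30 in AMO1 (standard error 0.0543, adjusted p = 0.00259), 0.15 in H929 (standard error 0.0469, adjusted p = 0.0544) and 0.08 in LP1 (standard error 0.0457, adjusted p = 0.478; edgeR with Benjamini-Hochberg adjustment). The AMO1 call held in 14 of 14 alternative fits and was lost by the 1.5-fold rule. In H929 EIF2AK3 was called with DESeq2 (adjusted p = 0.019) and by edgeR with no filter (0.0304), with filterByExpr (0.0491) and in the joint fit (0.0382), within a range over 14 alternatives of 0.019 to 0.234. EIF2AK3 belongs to the genes the study picked as targets in part on the AMO1 libraries, so its difference there is not independent evidence.

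With TMM factors, 7, 5 and 1 of the 8 genes of this branch had a positive log2 fold change in AMO1, H929 and LP1. ATF4 had 662, 643 and 609 CPM (SCR) and 593, 597 and 557 CPM (gN1E) in LP1. In H929 it had 552, 566 and 533 CPM (SCR) and 585, 603 and 584 CPM (gN1E). The labels do not overlap in either line, with gN1E lower in LP1 and higher in H929. The log2 fold changes of ATF4 were 0.08, 0.09 and -0.11 in AMO1, H929 and LP1, none called. DDIT3 gave 0.11, -0.25 and -0.35 with standard errors of 0.0756, 0.0939 and 0.119, at levels as low as 3.91 CPM in LP1. It passed the threshold in H929 with no filter on low counts, without SCR C and without gN1E C (adjusted p = 0.0463, 0.0125 and 0.0489 in these edgeR fits, against 0.157 with all libraries and the filter, and up to 0.5 over 14 alternatives). PPP1R15A, which encodes the phosphatase subunit GADD34 that reverses the action of PERK, was called in LP1. It had 101, 116 and 104 CPM (SCR) and 83.4, 91.2 and 92.8 CPM (gN1E), with every gN1E library below every SCR library. PPP1R15A differed by -0.24 ± 0.0575 on the log2 scale (standard error; adjusted p = 0.0352, edgeR with Benjamini-Hochberg adjustment), opposite to NEAT1. This call was lost in 6 of 14 alternatives, with edgeR adjusted p-values of 0.296 without SCR B, 0.198 without gN1E A and 0.0939 without gN1E B, and the lowest over all alternatives was 0.000748.

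In the IRE1-XBP1 branch, none of the 12 genes was called by edgeR in AMO1 (3 had an unadjusted p under 0.05), and limma-voom and DESeq2 called none. The edgeR fit with the replicate block called ERN1 (adjusted p = 0.0407) and SSR3 there. In LP1 edgeR called none of the 12 either (1 with an unadjusted p under 0.05, none by the other tools). XBP1 had 97.2, 93.4 and 87 CPM (SCR) and 93.7, 98.5 and 105 CPM (gN1E) in AMO1, and its log2 fold changes in the 3 lines were 0.10, -0.03 and 0.07 (standard errors 0.0612, 0.0456 and 0.0486). ERN1 had 0.14, 0.01 and 0.09. Next to the 16.7-fold difference in XBP1 between lines, the differences between gapmeR labels within a line were small and within or near the spread of the libraries. DNAJB9 was called in H929, with 33.9, 35.1 and 37 CPM (SCR) and 30.4, 32 and 30.8 CPM (gN1E), the latter all lower. DNAJB9 differed by -0.20 ± 0.0574 on the log2 scale (standard error; adjusted p = 0.0413, edgeR with Benjamini-Hochberg adjustment), and the call was lost with any 1 of the 6 libraries left out, with the replicate block, with limma-voom and in the joint fit (highest adjusted p 0.154, without SCR C, edgeR).

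**Figure D4:**
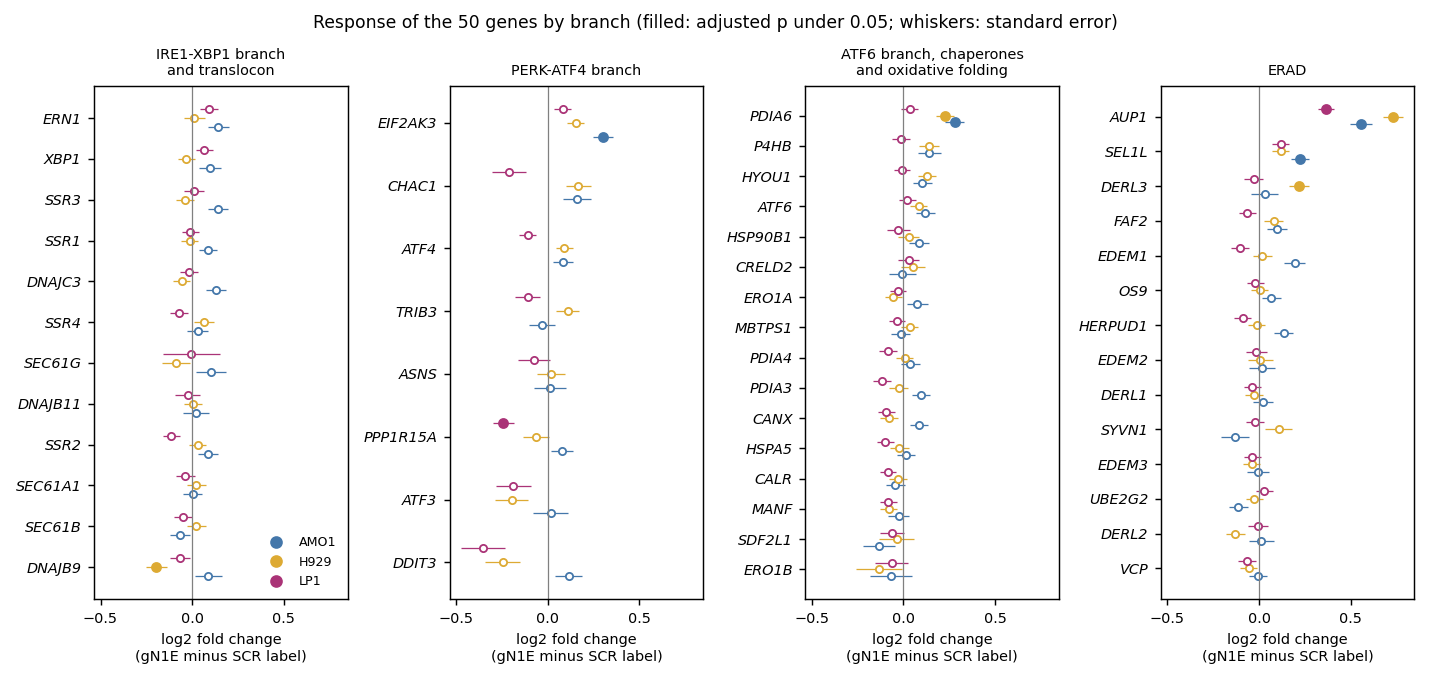
Log2 fold change (libraries labelled gN1E minus SCR) of the 50 genes in 4 panels by branch, with standard errors, coloured by line and filled where the adjusted p is under 0.05. AUP1 lies farthest to the right in each of the 3 lines, and DDIT3 in LP1 farthest to the left.

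In AMO1 libraries of equal replicate letter deviated from their groups in a weakly similar way (correlations 0.223, 0.202 and 0.146). The labels do not say that equal letters are pairs. The fit with the replicate block called 8 of the 50 genes in place of 4. It added ERN1, the translocon subunit SSR3, the disulfide isomerase P4HB and EDEM1 to AUP1, EIF2AK3, PDIA6 and SEL1L. Over all genes the fit with the block called 1394 in place of 473.

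Whether the lines responded unequally was tested as an interaction in the joint fit. Between AMO1 and H929, edgeR called 0 of the 50 genes and 0% of 26436 genes, 8 of the 50 had an unadjusted p under 0.05 (1771 of all genes, and 851 of 7879 at 20 CPM or more), and limma-voom and DESeq2 called 0 of the 50 as well. Between AMO1 and LP1 it called 1 of 50 (0.741% of all genes), and between H929 and LP1 also 1 (0.874%), beside 1.90% and 2.30% of genes at 20 CPM or more. At an unadjusted p under 0.05 there were 16 and 12 of the 50, beside 2820 and 2664 of all 26436 genes and 1351 and 1395 of the 7879 at 20 CPM or more. EDEM1 had 597, 573 and 522 CPM (SCR) and 622, 676 and 634 CPM (gN1E) in AMO1, and 759.8, 733 and 683 CPM and 673, 679 and 641 CPM in LP1. The gN1E libraries are the higher ones in AMO1 and the lower ones in LP1, without overlap. Its log2 fold change was 0.19 in AMO1 and -0.10 in LP1 in the fits by line, and the difference in the joint fit was 0.32 (standard error 0.0782, adjusted p = 0.0424, edgeR with Benjamini-Hochberg adjustment). This call was lost in 13 of 25 alternatives, with adjusted p-values from 0.00622 to 0.216 over all of them, the highest with library size only (edgeR). It was lost without AMO1 SCR C, SCR D, gN1E C or gN1E D (0.0526, 0.177, 0.142 and 0.0793), without LP1 SCR A, SCR B, gN1E A, gN1E B or gN1E D (0.14, 0.105, 0.0735, 0.0624 and 0.123), and without H929 SCR A, SCR B or gN1E B (0.0589, 0.0513 and 0.0542; adjusted p, edgeR), and the difference stayed between 0.23 and 0.36. AUP1 responded more in H929 than in LP1, by 0.40 (standard error 0.0794, adjusted p = 0.00443, edgeR with Benjamini-Hochberg adjustment), and passed the threshold in 25 of 25 alternatives. PDIA6, called in AMO1 and not in LP1, differed between them by 0.26 with an adjusted p of 0.0518 (edgeR with Benjamini-Hochberg adjustment), just over the threshold. This difference passed it with the replicate block, limma-voom, DESeq2, RLE factors and filterByExpr, and without AMO1 SCR A, H929 SCR B or H929 SCR C. With DESeq2, 10 of the 50 genes and 521 of all genes differed between AMO1 and LP1, namely EDEM1, PDIA6, ATF4, DDIT3, PPP1R15A, EIF2AK3, HERPUD1, CANX, PDIA3 and SSR2, so this count depends on the tool.

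Of 99 further genes of the same pathways, 96, 98 and 98 were tested in AMO1, H929 and LP1. Of these, edgeR called 3 in AMO1 (2 higher and 1 lower in the libraries labelled gN1E), 7 in H929 (5 higher and 2 lower) and 2 in LP1 (1 higher and 1 lower), shares of 3.12%, 7.14% and 2.04% beside 2.06%, 5.47% and 1.43% of all genes tested and 3.99%, 10.8% and 2.46% of those at 20 CPM or more. SEC63, a translocon partner that carries a DnaJ domain facing HSPA5, had 127, 132 and 129.8 CPM (SCR) and 161, 158 and 169.9 CPM (gN1E) in AMO1, where the labels do not overlap. Its log2 fold change was 0.33 in AMO1 (adjusted p = 0.000625) and 0.20 in H929 (adjusted p = 0.0109), against 0.02 in LP1 (adjusted p = 0.927; edgeR with Benjamini-Hochberg adjustment). In H929 the SEC63 call was lost without SCR A or gN1E A and with library size only, with adjusted p-values of 0.105, 0.0884 and 0.0593 (edgeR), the first of them the highest over 14 alternatives that began at 0.00143. The ATF4 target SESN2 was higher and the transcription factor ATF5 lower in the libraries labelled gN1E of AMO1 (0.25 and -0.34) and of H929 (0.17 and -0.18). In AMO1 the ATF5 call was lost without SCR D, gN1E C or gN1E D (adjusted p = 0.19, 0.186 and 0.206, edgeR), and that of SESN2 without SCR C, SCR D, gN1E A or gN1E D (0.0791, 0.191, 0.0979 and 0.232, edgeR). With limma-voom neither was called in AMO1 (adjusted p = 0.0657 for ATF5 and 0.0517 for SESN2). In H929 each was lost in 9 of 14 alternatives, ATF5 without any 1 of SCR A, B, C and gN1E A, B, C and SESN2 without any of these but gN1E A, with adjusted p-values up to 0.255 and 0.244 (edgeR).

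In H929, SLC7A5, an amino acid transporter under ATF4, had 1168, 1235 and 1146 CPM (SCR) and 1413, 1522 and 1486 CPM (gN1E), clearly separated. SLC7A5 differed by 0.30 ± 0.0504 on the log2 scale (standard error; adjusted p = 0.000174, edgeR with Benjamini-Hochberg adjustment), and the call held in 14 of 14 alternative fits but is under 1.5-fold, as are the other calls among these further genes. EIF4EBP1, CREB3L2 and BBC3 were the other 3 genes called in H929 besides SEC63, SESN2 and ATF5, with log2 fold changes of 0.19, 0.21 and -0.22; EIF4EBP1 and BBC3 are named after their values were seen. CREB3L2 had a log2 fold change of 0.19 in AMO1 (adjusted p = 0.0754, edgeR with Benjamini-Hochberg adjustment), and was called there with the replicate block (0.0025), without SCR A (0.0127) and in the joint fit (0.0234), and with DESeq2 (0.0316), within a range over 14 alternatives of 0.0025 to 0.318. In LP1 the calls were STC2 (0.23), a secreted glycoprotein, and TMUB1 (-0.29), a ubiquitin-like ERAD protein, lost in 5 and 6 of 14 alternatives. STC2 was lost without SCR A, SCR B, gN1E B or gN1E D and TMUB1 without SCR B or any 1 gN1E library, with adjusted p-values up to 0.178 and 0.212 (edgeR).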

How the data were processed

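RNA-seq was analysed in 18 libraries of 3 lines and 2 gapmeR labels, grouped by their sample labels. The deposited values are unnormalized read counts of genes, which the authors obtained by strand with featureCounts 1.6.4 (GENCODE release 43) after STAR 2.7.10a alignment to hg38; per the file headers each table also gives the exon length used for RPKM. Totals ran from 28061606 to 69937229 counts. Log2 fold changes came from edgeR 4.0.16 in R 4.3.3 (TMM factors, quasi-likelihood with robust dispersion, Benjamini-Hochberg adjusted p under 0.05), by line for genes that had 10 or more reads in any of 6 libraries, and in a joint fit of 18 libraries for differences between lines. Their standard errors were not estimated directly. Each is the size of the log2 fold change divided by the square root of the F statistic of its quasi-likelihood test. On simulated counts with 2-fold changes put into 200 well-counted genes, the fits recovered 95.5% to 100% of them, and 2.94% to 8.76% of the calls were false. Between the gapmeR labels the 50 genes all changed less than that, with log2 fold changes from -0.35 (LP1) to 0.73 (H929). Recovery of such smaller changes was not tested, so a gene that was not called may still differ. A symbol was found for 62639 of 62703 identifiers in the GENCODE release 44 annotation.

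The members and lists were chosen with earlier results of these data known. Named are NEAT1, ERN1, XBP1, EIF2AK3, ATF4, DDIT3, ATF6, HSPA5, SEL1L, SYVN1, HERPUD1, up to 6 called genes per line, the 3 with the largest fold between each pair of lines, and up to 3 further pathway genes per line; other names were chosen after their values were seen. Alternatives were limma-voom 3.58.1, DESeq2 1.42.0, edgeR with RLE factors or with library size only, no filter, filterByExpr, the replicate letter as a block, a rule of 1.5-fold and an adjusted p under 0.1, the joint fit, and each library left out. Letters were checked by correlating, between the labels, how far libraries of equal letter deviate from their group over 15433 genes: 0.223, 0.202 and 0.146 in AMO1. Libraries of unequal letter were not compared, so whether the letters pair the libraries is not settled by these values. Counts of libraries within a group differed by over 6 times the sampling noise. Promoters were searched with Python 3.11.15 and pandas 2.3.3, and figures drawn with matplotlib 3.10.9.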

Additional observations from a re-analysis of the deposited data

Results flagged for a closer look

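A pair of members and 3 further pathway genes responded unequally in 2 lines by the test of the interaction. Of 98 further genes tested, 3 did so between AMO1 and LP1 (3.06%) and 2 between H929 and LP1 (2.04%). The members gave 1 of 50 (2%) in either comparison. The shares of all genes tested were 0.741% and 0.874%, and of those at 20 CPM or more 1.90% and 2.30%. The difference in response (log2 fold change of libraries labelled gN1E minus SCR, in the line named first minus the line named second) was 0.32 for EDEM1 between AMO1 and LP1 and 0.40 for AUP1 between H929 and LP1, with values by library as given above. SLC7A11, the cystine transporter driven by ATF4, differed by 0.47 between AMO1 and LP1 (adjusted p = 0.00975, edgeR with Benjamini-Hochberg adjustment) and by 0.45 between H929 and LP1. It had 8.87, 7.38 and 8.48 CPM (SCR) and 6.38, 6.61 and 6.37 CPM (gN1E) in LP1, where the labels do not overlap, and its log2 fold change in the 3 lines was 0.11, 0.08 and -0.33, called in none of them. CREB3L2, a membrane-bound transcription factor processed like ATF6, differed by 0.29 between AMO1 and LP1 and by 0.33 between H929 and LP1 (adjusted p = 0.0266 and 0.00717, edgeR with Benjamini-Hochberg adjustment). SEC63 differed by 0.33 between AMO1 and LP1 (adjusted p = 0.0266, edgeR with Benjamini-Hochberg adjustment). Over 25 alternatives the AMO1 to LP1 differences passed the threshold in 22 fits for SLC7A11, 15 for CREB3L2 and 18 for SEC63, and the H929 to LP1 differences in 21 for SLC7A11 and 24 for CREB3L2. For SLC7A11 the former was lost without LP1 SCR A (adjusted p = 0.0567, edgeR) and the latter without LP1 SCR A or H929 SCR A (0.0804 and 0.0561, edgeR), besides limma-voom and library size only, with adjusted p-values over all alternatives from 0.00101 to 0.123 and from 0.0013 to 0.175. CREB3L2 lost the former without AMO1 SCR C, SCR D, gN1E A, gN1E C or gN1E D (0.0553, 0.106, 0.0598, 0.0522 and 0.0683), without LP1 SCR A, SCR B, gN1E A or gN1E B (0.0567, 0.0718, 0.101 and 0.0625) and with library size only (0.188, the highest; adjusted p, edgeR), and the latter with library size only (0.183). SEC63 lost it without AMO1 SCR A, SCR D or gN1E D (0.0562, 0.067 and 0.105), without LP1 SCR D, gN1E A or gN1E D (0.0999, 0.07 and 0.0878) and with library size only (0.159, the highest; adjusted p, edgeR). What lies behind these differences was not tested.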

How the results depend on the processing

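For the genes named by the rule, 954 of 1036 values under an alternative kept their side of the threshold, 69 lost a call and 13 gained one. None that was called turned its direction. Some values that were not called changed sign, as for DERL3 in AMO1 (log2 fold change 0.03, and -0.06 at the lowest). In AMO1 the genes past the threshold numbered 473, but 808 with no filter on low counts, 1394 with the replicate block and 176 by the rule of 1.5-fold and an adjusted p under 0.1, and from 254 (without gN1E D) to 606 (without SCR C); the members numbered 4, but 8 with the block and 0 at the 1.5-fold rule. In H929 the 1286 genes became 369 at the 1.5-fold rule and from 701 (without gN1E B) to 1272 with 1 library left out, and the 4 members became 7 with no filter, 1 at the 1.5-fold rule and from 2 to 4 with 1 library left out. In LP1 the 332 genes became 512 with DESeq2, 700 with no filter, 102 at the 1.5-fold rule and from 87 (without SCR B) to 780 (without SCR D). The 2 LP1 members became 1 with limma-voom, library size only or the joint fit, 0 at the 1.5-fold rule and from 1 to 3 with 1 library left out. The single member with an unequal response in AMO1 and LP1 (196 of all genes) became 3 with limma-voom (169), 10 with DESeq2 (521), 0 with library size only (148), 4 with no filter (265), 2 each with RLE (217), filterByExpr (215) and the block (234), and from 0 to 3 with 1 library left out. Between H929 and LP1, 1 (231 of all genes) became 2 with DESeq2 (383), 3 with no filter (368), 2 with the block (361) and 1 to 2 with 1 library left out. The cause of these shifts was not tested. Counts of members with a 2-fold level difference stayed within 1.5 times under each alternative, the libraries of either gapmeR label alone included.

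Deviations of libraries of equal letter correlated at -0.02, -0.05 and -0.12 in H929 and at 0.19, -0.00 and -0.06 in LP1. The replicate block called 3 and 2 members in these lines. The value of LP1 letter A lies within the range of AMO1, so these correlations do not tell which lines hold paired libraries. The smallest p that a two-sided exact permutation test can give for 3 against 3 libraries is 0.1. NEAT1 runs against the gapmeR labels, and the AMO1 libraries labelled gN1E are shallower than those labelled SCR, so depth and label cannot be told apart there. Levels below about 10 CPM, as of DDIT3 and ERO1B in LP1, carry wider errors.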

Other observations

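Further stress response genes differed in level between LP1 and the other lines, and those here are named after their values were seen. Of 24 genes tested in the list of other PERK-ATF4 and stress response genes, 13 differed by 2-fold between AMO1 and LP1 (10 higher in AMO1, 3 higher in LP1) and 10 between H929 and LP1 (7 and 3), shares of 54.2% and 41.7% beside 41.5% and 38.1% of all genes tested. SLC7A11 was at 111 ± 7.03 CPM in AMO1, 84.7 ± 4.75 in H929 and 7.35 ± 1.1 in LP1 (SD, n = 6). SESN2, an inhibitor of mTORC1 signalling, was at 166 ± 18.3, 129 ± 10.6 and 40.1 ± 2.68 CPM, and BBC3, the proapoptotic gene PUMA, at 34.9 ± 4.51, 34.6 ± 3.44 and 5.81 ± 1.06 CPM. PMAIP1, the proapoptotic gene NOXA, measured 25.4 ± 0.749, 29.4 ± 1.2 and 2.62 ± 0.268 CPM. ATF5 was highest in LP1, with 42.8 ± 6.68, 61.8 ± 4.38 and 1189 ± 90.5 CPM, as was STC2, which was at 19.4 ± 1.97 CPM in H929 and 117 ± 10.4 CPM in LP1 and was listed at 0 in 5 of 6 libraries of AMO1 and at 0.0399 CPM in the other.

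Of the 48 other ER chaperones, folding and transport genes, 11 differed by 2-fold between AMO1 and LP1 (9 higher in LP1, 2 higher in AMO1), 22.9% beside 41.5% of all genes tested, and 4 are named here after their values were seen. TRAM1, a translocon partner, was at 326 ± 14.7, 361 ± 14.3 and 1188 ± 64.4 CPM in AMO1, H929 and LP1. SEC11C, a catalytic subunit of the signal peptidase, was at 85.1 ± 6.89, 97.4 ± 9.85 and 305 ± 32.8 CPM, and WFS1, an ER membrane protein induced by ER stress, at 21.8 ± 1.9, 27.1 ± 1.86 and 147 ± 11.1 CPM. KDELR3, a receptor that returns chaperones to the ER, was the reverse, at 7.94 ± 0.867, 6.13 ± 0.79 and 0.115 ± 0.0906 CPM.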
